A study of Mus musculus with 12 samples.

Results

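The genes described here encode the nuclear receptors of the mouse other than the ERR and REV-ERB receptors. They were chosen by gene symbol as members of the superfamily, whatever their level or change, and 40 such genes were looked up among the 54532 genes of the deposited TPM table (a level scaled to gene length and library size). The RNA came from Hepa 1-6, a mouse hepatoma line labelled wild type, in 12 libraries and 4 groups of 3. One group received a scrambled control pool of small interfering RNAs (siC), another a pool against Esrra, the gene of the orphan receptor ERRα (siERRa), a further group one against Hcfc1, which encodes the chromatin coregulator HCFC1 (siHCFC1), and the last both pools (siERRa+siHCFC1, the combined knockdown). Each dish received 100 nM siRNA at the start and at 48 h, which sums to 200 nM, and was taken at 96 h; how the dose was split between the pools in the combined knockdown is not given in the sources used here. The series asks how ERRα and HCFC1 work together. The labels call the 3 samples of a group replicates without naming separate cultures, so p-values reflect only how these libraries differ, and that spread may be technical.

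Nuclear receptors are transcription factors that bind DNA through a zinc finger domain and, in most cases, a lipid-soluble ligand such as a steroid, thyroid hormone, retinoic acid, oxysterol, bile acid or fatty acid. Many bind DNA as heterodimers with a retinoid X receptor (RXR), steroid receptors as homodimers, and several orphan receptors as monomers on a single short site. In liver they are known for tying lipid, bile acid, glucose and xenobiotic metabolism to hormones and nutrients, and ligand binding exchanges corepressor for coactivator proteins.

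Libraries held 21.4 to 33.2 M counts in genes. Library-scaled counts (CPM, with TMM scaling) of Esrra were 47.0 ± 4.72 in siC, 12 ± 4.34 in siERRa and 17.3 ± 4.21 in the combined knockdown (SD, n = 3). Hcfc1 was at 173 ± 28.2 CPM in siC, 96.2 ± 29.9 in siHCFC1 and 113 ± 22.0 with both pools (SD, n = 3). Neither group with the Hcfc1 pool overlapped siC, but the change missed the threshold (adjusted p = 0.0668 and 0.182, edgeR). In siERRa Hcfc1 was at 146 ± 36.7 CPM (SD, n = 3). Its range there, 109 to 182 CPM, overlapped siHCFC1 (66.2 to 126) and the combined knockdown (88.7 to 131). Lower Hcfc1 in the combined knockdown than in siERRa was thus not shown. Mitochondrially encoded genes took 2.37% to 14.5% of the counts of a library. Of 8 hepatocyte markers 5 to 7 were at 1 TPM or more in a group: Alb and Afp were abundant, while Ahsg was at or below 0.329 TPM and Ttr at or below 1.13 TPM in the group means, so these cells lack some defining hepatocyte transcripts. The 4 endothelial markers summed to at most 0.782 TPM in any library. Among fibroblast and macrophage markers, Col1a2 and Ptprc were at or near 0 and only Dcn and Cd68 were abundant, while all 4 cholangiocyte markers (Krt19, Krt7, Sox9 and Epcam) were at 1 TPM or more in every group. Several of these sums moved with the siRNA pools. The cholangiocyte markers summed to 201 to 234 TPM in siC, 214 to 268 in siERRa, 149 to 180 in siHCFC1 and 143 to 207 with both pools. The 4 fibroblast markers summed to 1370 to 2170, 1550 to 2270, 2140 to 3450 and 2050 to 2480 TPM in the same order, the 4 macrophage markers to 167 to 225, 109 to 151, 80.5 to 141 and 68.9 to 103 TPM, and the hepatocyte markers to 4650 to 7780, 8090 to 10300, 5770 to 7900 and 7210 to 9020 TPM. Single markers did not all follow their sum. Group means of Epcam, Krt19 and Sox9 were 83.1, 21.3 and 101 TPM in siC and 40.4, 7.62 and 98.8 in siHCFC1. Krt7 went the other way, from 11.2 to 19.2 TPM. Cd68 was at 203 TPM in siC and 111 in siHCFC1, while Csf1r was at 0.556 and 3.77 TPM. The part of these shifts in the receptor results was not tested.

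Most of the superfamily was either clearly present or close to absent. A mean of at least 1 TPM in at least 1 group was reached by 23 of the 40 genes, and 12 reached 10 TPM. A further 4 genes (Nr1i3, Nr1h3, Ppara and Nr4a3) passed the filter on counts below that level, and 13 were near silent. Of these 13, 10 had no row in the count tables (Rarb, Rorb, Nr1i2, Rxrg, Nr2e1, Nr2e3, Nr2f1, Esr2, Pgr and Nr0b1), and 9 were listed at 0 TPM in all 12 libraries. For Rarb this is uncertain by position, as 38.4% of its exon bases overlap Top2b on the opposite strand. Top2b was at 154 to 180 CPM in siC, and how reads over both genes were counted is not given. Hnf4g, Nr5a1 and Nr0b2 had rows but were at 0 in the 3 siC libraries, where a floor of 3 counts over the group allows up to 0.0403 CPM. Their highest single values were 0.599 CPM for Hnf4g and 0.438 CPM for Nr0b2, both in the combined knockdown, and 0.969 CPM for Nr5a1 in 1 siHCFC1 library. Changes could thus be tested for 27 of the 40 genes, and counts below are of those 27.

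**Figure D1:**
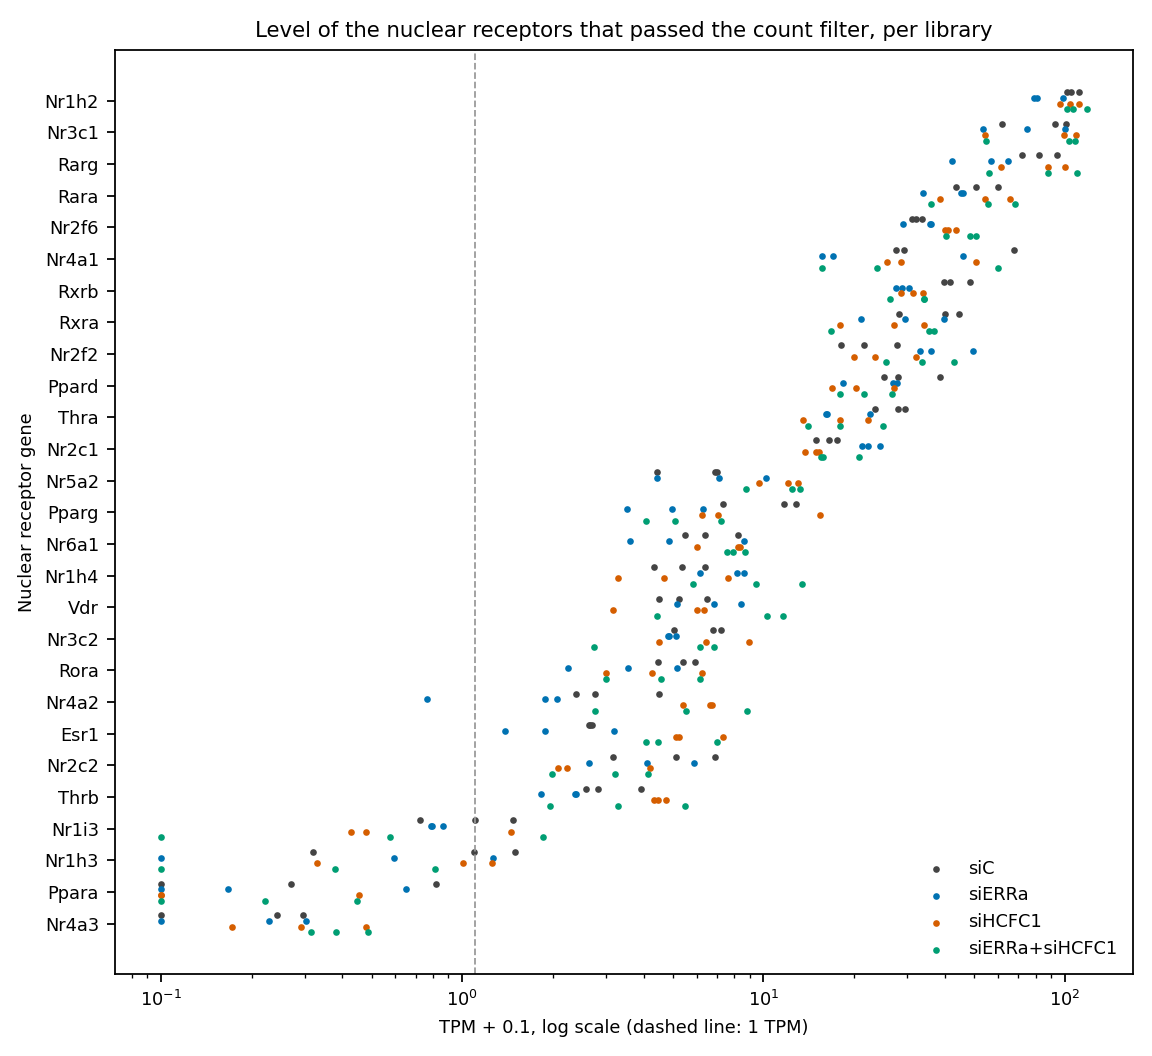
TPM of the 27 nuclear receptor genes with testable counts, 1 point per library and 1 colour per siRNA group, on a log axis after adding 0.1 (dashed line, 1 TPM). Genes are ordered by mean TPM. Nr1h2, Nr3c1, Rarg and Rara lead, and the lowest 4 genes lie around or below 1 TPM.

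Per length, Nr1h2 was the most abundant member, with 78.8 to 118 TPM over the 12 libraries; it encodes LXRβ, the broadly expressed oxysterol receptor. The glucocorticoid receptor gene Nr3c1 had 53.3 to 109 TPM, and the retinoic acid receptor genes Rarg and Rara had 42.0 to 110.0 and 33.8 to 68.4 TPM. Then came Nr2f6, an orphan receptor of the COUP-TF subfamily (28.9 to 50.6 TPM), and Nr4a1, an immediate early gene (15.5 to 68.0 TPM). These 6 genes held 62.6% ± 1.97 of the summed TPM of all 40 in siC, 59.4% ± 4.41 in siERRa, 66.0% ± 1.16 in siHCFC1 and 64.6% ± 1.35 with both pools (SD, n = 3). The sum over all 40 was 637 ± 80.0 TPM in siC, 533 ± 66.7 in siERRa, 610 ± 105 in siHCFC1 and 640 ± 151 with both pools (SD, n = 3), and differences between these means were not tested.

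Within subfamilies, 1 paralog usually carried most of the transcript. Nr1h2 held 89.7% to 96.6% of the TPM of the NR1H genes in the 12 libraries, ahead of Nr1h4 (FXR, the bile acid receptor, 3.2% to 10.1%) and Nr1h3 (LXRα, the form most associated with liver, 0% to 1.29%). Among the fatty acid receptors, Ppard held 63.4% to 87.4% and Pparg 10.9% to 35.8%, while Ppara, the main PPAR of hepatocytes, held at most 1.75%. Thra, which encodes thyroid hormone receptor α, held 76.1% to 92.9% against 7.11% to 23.9% for Thrb, the form that dominates in liver. In this hepatoma line the forms known from hepatocytes were thus the minor ones in all 3 subfamilies. Rxra and Rxrb were nearly even, with 38.5% to 59.1% and 40.9% to 61.5%, and Rxrg was listed at 0. Nr4a1 held 80.9% to 98.1% of NR4A transcript, and Nr3c1 91.8% to 95.5% of NR3C transcript.

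Few of the receptors passed the test in any comparison, and those that did were higher in the group that received the Hcfc1 pool. Genes are called here at a Benjamini-Hochberg adjusted p below 0.05 over 15965 genes in edgeR's quasi-likelihood test. Against siC, 0 of 27 receptors were called in siERRa (0.438% of all genes tested were), 1 in siHCFC1 (6.68% of all genes) and 2 in the combined knockdown (6.89% of all genes). Against siERRa, 2 were called in the combined knockdown (3.24% of all genes), and against siHCFC1 0 were (0.00626% of all genes). The departure of the combined change from the sum of the single changes gave 0 calls (0.0% of all genes). At an unadjusted p below 0.05 the counts were 7, 5, 8, 7, 2 and 1 of 27 in that order, beside 10.3%, 21.0%, 21.1%, 17.1%, 7.26% and 2.75% of all genes. DESeq2 called 2, 3, 4, 4, 0 and 0 of 27, beside 3.01%, 11.6%, 12.4%, 9.04%, 0.57% and 0.0313% of the genes it tested. With library number added to the edgeR fit as a block, 7, 10, 6, 8, 1 and 0 of 27 were called. All genes called with it numbered 1625, 3974, 4067, 3191, 562 and 23 of 15965. The labels do not say that numbers pair libraries. Unless another fit is named, calls are from the fit without the block, and the receptors called with it are named at the end. The shares of receptors called against siC, 3.7% in siHCFC1 and 7.41% with both pools, were below and near those of all genes, and the share against siERRa rests on 2 genes. The 3 comparisons with siC share its libraries and are not independent of each other. In bulk RNA, fewer cells with a transcript and less of it per cell cannot be told apart.

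**Figure D2:**
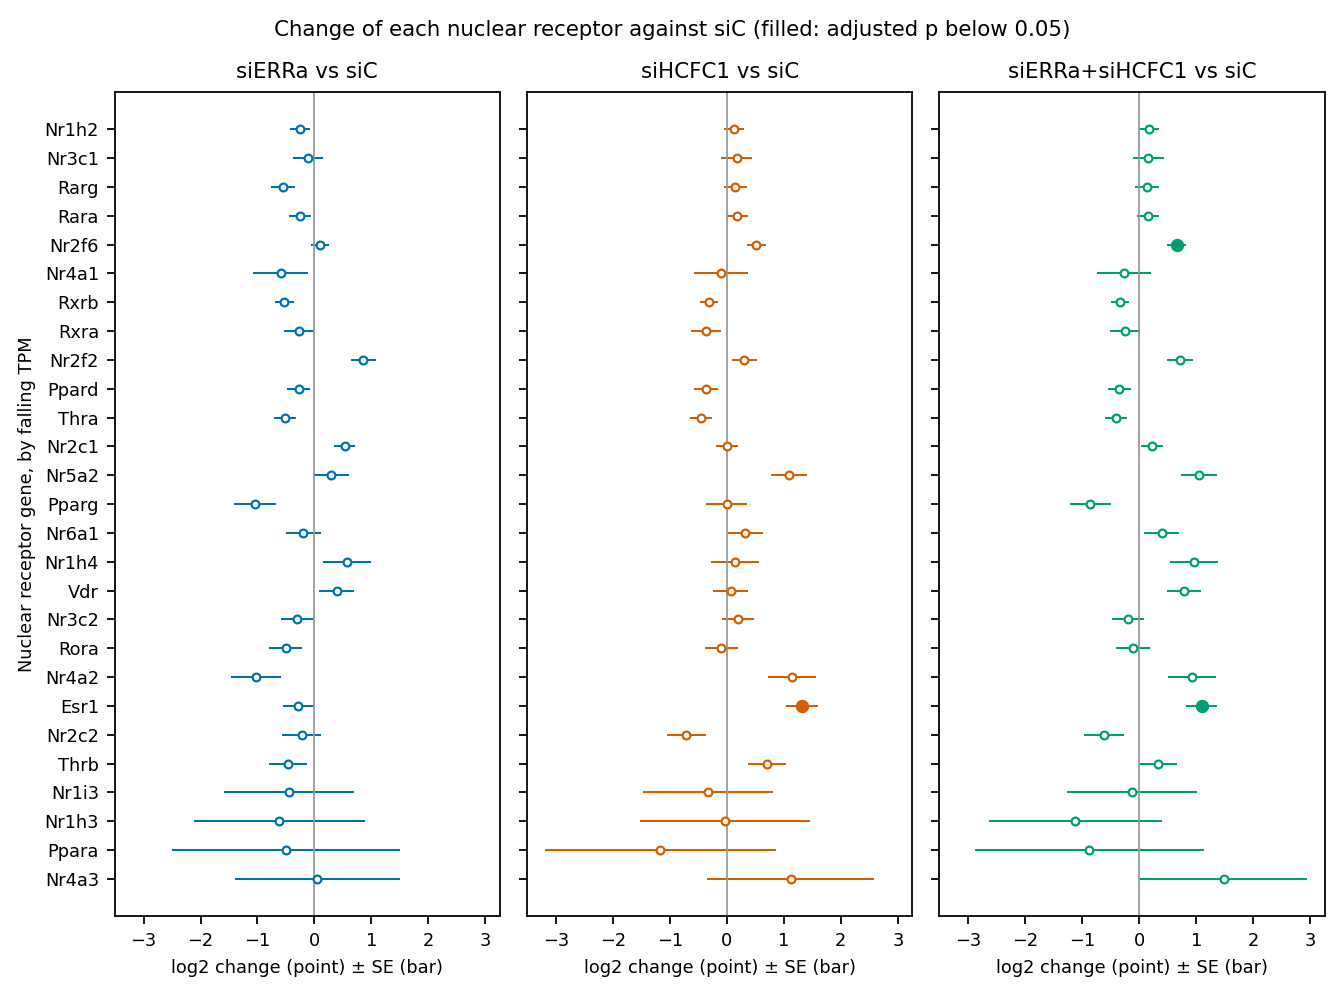
log2 change against siC (point) with its standard error (bar) for the 27 tested receptors in siERRa, siHCFC1 and the combined knockdown, ordered by TPM. Filled points passed an adjusted p of 0.05: Esr1 in siHCFC1 and Esr1 and Nr2f6 with both pools. The lowest 4 genes have the widest bars.

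Of the steroid receptors, Esr1, which encodes estrogen receptor α, was the receptor with the clearest change. It lies on chromosome 10 (4611593 to 5005614, plus strand, mm10) and was 2.5-fold higher in siHCFC1 than in siC. Its level was 10.8, 11.3 and 10.8 CPM in siC, 13.1, 8.16 and 5.82 in siERRa, 32.8, 27.2 and 22.6 in siHCFC1 and 19.9, 22.2 and 28.4 with both pools (libraries 1 to 3). Every library with the Hcfc1 pool lay above every library without it, and siC and siERRa overlapped. The log2 change was 1.32 ± 0.27 in siHCFC1 (SE, adjusted p = 0.0111) and 1.1 ± 0.27 in the combined knockdown (adjusted p = 0.0265) against siC. Against siERRa the combined knockdown was 1.38 ± 0.28 higher (SE, adjusted p = 0.0149). In siERRa against siC the log2 change was -0.28 ± 0.27 (SE, adjusted p = 0.855), and the departure from additivity was 0.06 ± 0.38 (SE, adjusted p = 1.0). Per length the transcript stayed modest, at 2.56 ± 0.04 TPM in siC and 5.79 ± 1.24 TPM in siHCFC1 (SD, n = 3).

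The Esr1 calls depended on which libraries were used. In siHCFC1 the adjusted p rose to 0.0525 without siC library 1, and to 0.201 and 0.0526 without the libraries numbered 1 or 2 in all groups. In the combined knockdown against siC it was above 0.05 without any 1 of the siC libraries (0.101, 0.0716 and 0.0932 without library 1, 2 and 3) and without combined library 2 or 3 (0.0545 and 0.107). Against siERRa it was above 0.05 without siERRa library 3 (0.052) or combined library 3 (0.0706). Without the libraries numbered 1, 2 or 3 the combined knockdown gave 0.182, 0.084 and 0.136 against siC and 0.108, 0.0741 and 0.189 against siERRa. With limma on log2(TPM + 0.5) the 3 adjusted p-values were 0.0964, 0.169 and 0.101, and with only the groups compared the last was 0.0537. The log2 change stayed above 0 throughout, at 0.83 or more. The other tested steroid receptors were not called: Nr3c1 and the mineralocorticoid receptor gene Nr3c2 had log2 changes between -0.31 and 0.20 against siC. Nr3c1 was at 231, 150.0 and 210.0 CPM in siC, 229, 133 and 183 in siERRa, 244, 156 and 265 in siHCFC1 and 253, 165 and 242 with both pools, so the groups overlapped.

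Nr2f6 encodes EAR2, an orphan receptor related to the COUP-TF proteins and known mostly as a repressor, and lies on chromosome 8 (71374123 to 71381960, minus strand). Its level was 28.8, 31 and 30.6 CPM in siC, 33.2, 28.8 and 34.9 in siERRa, 42.9, 47.3 and 39.2 in siHCFC1 and 48.1, 49.0 and 45.4 with both pools. As for Esr1, the 6 libraries with the Hcfc1 pool were above the 6 without it. The log2 change was 0.66 ± 0.16 in the combined knockdown (SE, adjusted p = 0.0251) and 0.52 ± 0.16 in siHCFC1 (adjusted p = 0.0705), and in siERRa it was 0.10 ± 0.16 (adjusted p = 0.936). DESeq2 also called the siHCFC1 value (adjusted p = 0.00573). The call in the combined knockdown was lost on leaving out any 1 of the 6 libraries compared (adjusted p between 0.065 and 0.121) or the libraries numbered 1, 2 or 3 of all groups (0.418, 0.0503 and 0.133), with no filter on low counts (0.081) and with limma on TPM (0.0799). The gene is also uncertain by position: 54.4% of its exon bases overlap Ocel1 on the opposite strand, and the library kit does not mark strand. Ocel1 itself was at 13.0 ± 4.11 CPM in siC and 15.2 ± 8.98 in the combined knockdown (SD, n = 3), a log2 change of 0.23 ± 0.46 (SE, adjusted p = 0.856). Its part in the Nr2f6 values was not tested.

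The windows upstream of these 2 genes are shown because they belong to the receptors called against siC. Each is the 250 bases before a RefSeq start site (GRCm38.p6), read 5′ to 3′ on the gene's strand; for Esr1 it is the second of 2 annotated starts, at chr10:4709908-4710157 (plus strand), and for Nr2f6 it is chr8:71381953-71382202 (minus strand). The window of the first Esr1 start (chr10:4611739-4611988, plus strand) is not shown, as all of its 250 bases are annotated exon. Which start these cells use cannot be read from gene counts.
Esr1: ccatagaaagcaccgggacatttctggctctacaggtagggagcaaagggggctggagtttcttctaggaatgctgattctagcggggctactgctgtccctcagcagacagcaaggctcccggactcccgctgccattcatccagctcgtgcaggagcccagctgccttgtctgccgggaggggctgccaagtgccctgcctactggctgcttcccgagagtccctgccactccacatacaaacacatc
Nr2f6: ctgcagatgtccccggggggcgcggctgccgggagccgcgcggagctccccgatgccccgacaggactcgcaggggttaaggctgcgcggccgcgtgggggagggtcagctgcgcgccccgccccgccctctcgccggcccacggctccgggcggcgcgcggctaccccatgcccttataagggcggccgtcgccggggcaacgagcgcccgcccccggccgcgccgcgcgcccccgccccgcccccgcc
None of the motifs searched on both strands occurred in either. The motifs were TCAAGGTCA (an ERR element), its shorter form AAGGTCA, CTACAATTC (the core of the element read by THAP11 and ZNF143, partners of HCFC1), CCGGAAGT (an ETS element), and the cAMP response element TGACGTCA with its shorter form TGACG. The ERR element occurred upstream of 0 of the 36 receptors with a window and in 0.387% of 32851 windows, and CTACAATTC in 0 of 36 and in 0.32% of windows. AAGGTCA, which the ERR element contains, was found for Nr6a1, Rxra and Rxrg (4.08% of windows) and CCGGAAGT for Nr1h2 (2.88% of windows). These matches and their absence describe letters in a short window and nothing about binding.

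**Figure D3:**
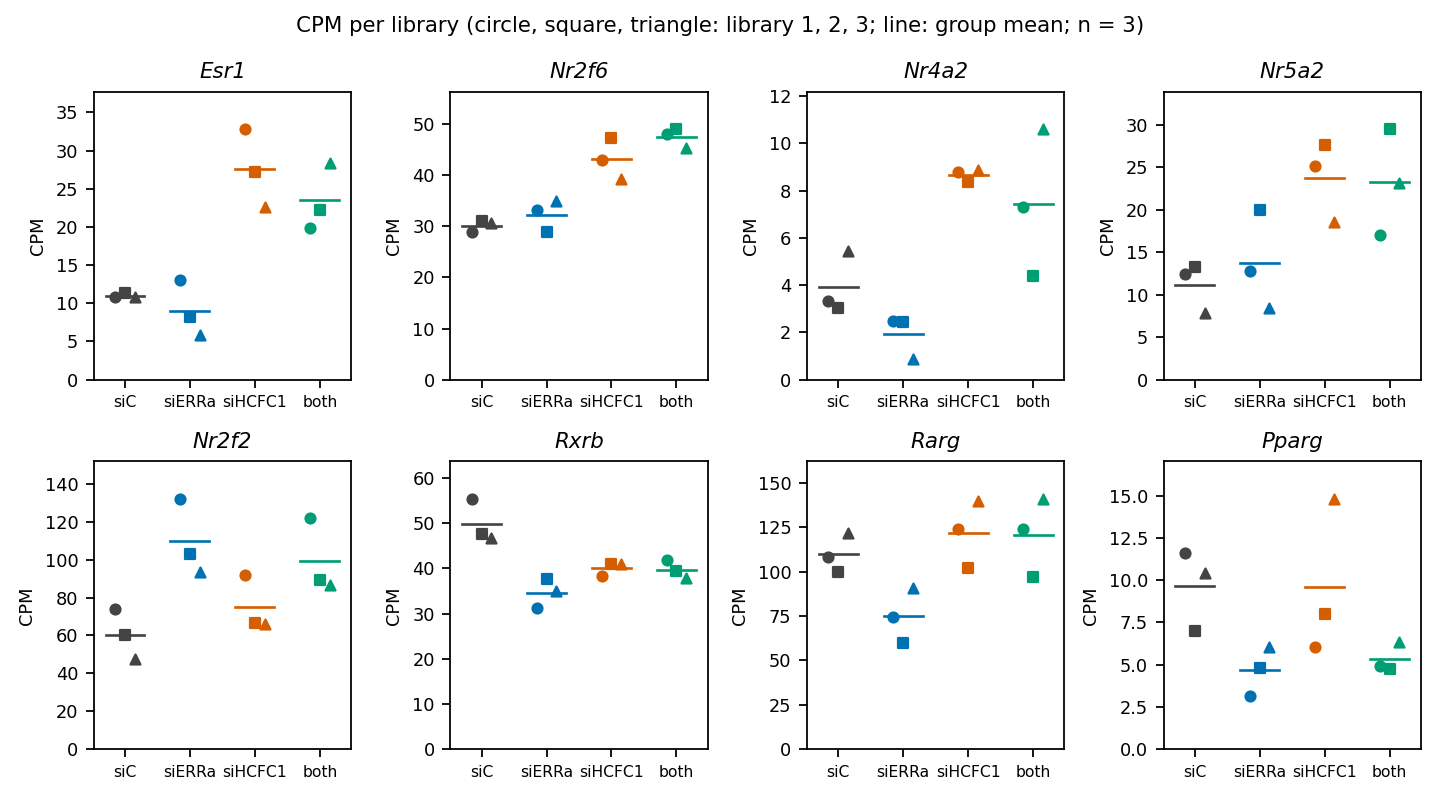
CPM of 8 receptor genes in each library (circle, square and triangle for libraries 1, 2 and 3; line, group mean; both, the combined knockdown). Esr1 and Nr2f6 are higher in all 6 libraries with the Hcfc1 pool, Nr2f2 is higher and Rxrb and Rarg are lower in the 3 siERRa libraries than in siC.

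The immediate early receptors of the NR4A subfamily act without a classical ligand and are induced within minutes by cAMP, calcium and growth factor signals. Nr4a2 (NURR1; chromosome 2, 57106830 to 57124003, minus strand) differed most between the combined knockdown and siERRa, by 3.88-fold. Its level was 3.33, 3.02 and 5.44 CPM in siC, 2.47, 2.44 and 0.889 in siERRa, 8.78, 8.38 and 8.88 in siHCFC1 and 7.31, 4.38 and 10.6 with both pools. All siERRa libraries were below siC and all siHCFC1 libraries above it, while the combined knockdown overlapped siC. The log2 change of the combined knockdown was 1.96 ± 0.44 against siERRa (SE, adjusted p = 0.0269) and 0.92 ± 0.42 against siC (adjusted p = 0.226). Neither single knockdown passed against siC in edgeR, with 1.14 ± 0.42 in siHCFC1 (SE, adjusted p = 0.131) and -1.03 ± 0.43 in siERRa (adjusted p = 0.405). The authors' deposited table calls Nr4a2 in siHCFC1 (adjusted p = 0.0265). The call against siERRa was lost without siERRa library 1 (adjusted p = 0.0585) or 3 (0.0797) and without combined library 1 (0.0661) or 3 (0.129), without the libraries numbered 1 or 3 of all groups (0.353 and 0.272), with limma on TPM (0.0879) and with only these groups (0.0836). Nr4a1 (NUR77) was at 29.8, 33.4 and 72.8 CPM in siC, 18.4, 18.2 and 53.3 in siERRa, 33.1, 35.0 and 58.4 in siHCFC1 and 27.7, 22.1 and 63.3 with both pools. Its 4 groups overlapped, and the largest of its log2 changes against siC was -0.60 ± 0.48 in siERRa (SE, adjusted p = 0.792). Nr4a3 (NOR1) did not exceed 0.885 CPM in any library.

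The 3 NR4A genes share a feature that the choice of members did not use, which is why the Nr4a1 and Nr4a2 windows are shown: each has 4 matches to TGACG, the shorter form of the cAMP response element, counting both strands. The Nr4a3 window is less comparable and is not shown, as 152 of its 250 bases are annotated exon, against 0 for Nr4a1 and Nr4a2. The windows are chr15:101266596-101266845 (plus strand) for Nr4a1 and chr2:57124004-57124253 (minus strand) for Nr4a2, from RefSeq (GRCm38.p6), and capitals mark the matches as TGACG or, on the other strand, CGTCA.
Nr4a1: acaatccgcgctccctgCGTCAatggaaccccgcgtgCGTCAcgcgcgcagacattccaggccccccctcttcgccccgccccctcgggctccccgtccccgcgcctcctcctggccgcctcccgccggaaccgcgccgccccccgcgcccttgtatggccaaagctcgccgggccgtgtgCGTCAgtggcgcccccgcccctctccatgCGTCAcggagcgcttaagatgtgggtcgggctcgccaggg
Nr4a2: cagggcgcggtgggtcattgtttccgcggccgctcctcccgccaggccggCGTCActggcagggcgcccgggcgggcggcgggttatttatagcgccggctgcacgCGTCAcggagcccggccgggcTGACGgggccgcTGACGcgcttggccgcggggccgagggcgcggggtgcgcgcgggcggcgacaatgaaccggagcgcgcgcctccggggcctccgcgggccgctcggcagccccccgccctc
At least 1 match occurred in 17.8% of the 32851 windows and in 12 of the 52 receptor windows (23.1%), each of another receptor, and at least 4 matches in 0.137% of windows; the count of 4 was chosen after the matches were seen. The full palindrome TGACGTCA, which holds TGACG on both strands, was found only upstream of Nr2e1 among the receptors (1.55% of windows). NR4A genes are textbook targets of the factor CREB, which reads this element. In the transcripts, Nr4a1 was highest in the libraries numbered 3 of all 4 groups, whereas Nr4a2 lay above siC in all libraries of siHCFC1.

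Among the remaining orphan receptors, Nr5a2 and Nr2f2 came nearest to the threshold. Nr5a2 encodes LRH-1, a regulator of bile acid synthesis and of hepatic metabolism, and was at 12.4, 13.3 and 7.8 CPM in siC, 12.8, 20 and 8.41 in siERRa, 25.2, 27.6 and 18.6 in siHCFC1 and 17.0, 29.5 and 23.2 with both pools. All libraries with the Hcfc1 pool were above the 3 of siC, and siERRa overlapped siC. Its log2 change was 1.09 ± 0.32 in siHCFC1 (SE, adjusted p = 0.0567) and 1.05 ± 0.32 in the combined knockdown (adjusted p = 0.0635), which both miss the threshold in edgeR and pass it in DESeq2 (adjusted p = 0.0182 and 0.0221). In the authors' deposited table Nr5a2 is called in both comparisons (adjusted p = 0.00664 and 0.00738).

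Nr2f2 encodes COUP-TFII and was highest where the Esrra pool was used. Its level was 73.7, 60.3 and 47.4 CPM in siC, 132, 103 and 93.6 in siERRa, 91.7, 66.4 and 66.2 in siHCFC1 and 122, 89.2 and 86.6 with both pools. Libraries of siERRa and of the combined knockdown were all above siC, and library 1 was the highest in every group. Its log2 change was 0.86 ± 0.22 in siERRa (SE, adjusted p = 0.129) and 0.72 ± 0.22 in the combined knockdown (adjusted p = 0.0695). The siERRa value passed in DESeq2 (adjusted p = 0.0112) and with no filter on low counts (0.0204), and the authors' deposited table calls it too (adjusted p = 0.0199). The value in the combined knockdown also passed in DESeq2 (adjusted p = 0.0153) and with no filter (0.034), and is called in the authors' deposited table (adjusted p = 0.0133). The testicular receptor genes Nr2c1 and Nr2c2 and the germ cell factor gene Nr6a1 were not called. Nr2c1 (TR2) was at 24.8, 24.6 and 20.7 CPM in siC, 31.5, 37.5 and 32.1 in siERRa, 22.6, 24.4 and 23.0 in siHCFC1 and 31.5, 29.4 and 21.3 with both pools. The siERRa libraries did not overlap siC, at a log2 change of 0.53 ± 0.19 (SE, adjusted p = 0.321). Nr2c2 (TR4) was at 31.4, 14.9 and 22.9 CPM in siC, 26.8, 20 and 12.5 in siERRa, 20.3, 12.3 and 9.7 in siHCFC1 and 15.5, 11.5 and 18.1 with both pools, and all groups overlapped. It had log2 changes of -0.71 ± 0.35 in siHCFC1 and -0.62 ± 0.35 in the combined knockdown (SE, adjusted p = 0.262 and 0.338), but 31.2% of its exon bases overlap Mrps25, whose own log2 changes were -0.64 ± 0.35 and -0.87 ± 0.36 (SE, adjusted p = 0.333 and 0.163). The part of Mrps25 in these values was not tested. Nr6a1 was at 21.2, 28.6 and 17.8 CPM in siC, 15.9, 30.9 and 12.5 in siERRa, 29.6, 34.1 and 21 in siHCFC1 and 26.8, 34.4 and 27.8 with both pools, with library 2 the highest in each group.

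The receptors that pair with RXR, and RXR itself, were mostly lower in siERRa without a call. Of 12 tested partners 10 had a log2 change below 0 in siERRa against siC (median -0.46), as did Rxra and Rxrb. In siHCFC1 and in the combined knockdown 6 of the 12 were below 0 (median 0.03 and 0.00). The 10 include Ppara, Nr1h3 and Nr1i3, which had low counts and standard errors of 2.0, 1.5 and 1.14 in siERRa. The lean was not particular to these receptors. In siERRa, all 3 tested steroid receptors, 2 of 3 NR4A receptors and 3 of 7 other orphan receptors were below 0 too. Over all 27 tested receptors, 20 were below 0 in siERRa, with a median of -0.28 against 0.01 for all genes; the numbers were 20 and 20 with RLE scaling and DESeq2 and 21 with TPM. The 3 siERRa libraries lay below all siC libraries for 7 receptors (9.16% of all genes) and above them for 2 (7.17% of all genes). These genes are measured in the same libraries, so the counts are a description of 3 against 3 libraries.

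Rxrb, the broadly expressed RXR on chromosome 17 (34031812 to 34038393, plus strand), was at 55.4, 47.6 and 46.8 CPM in siC, 31.3, 37.6 and 35.1 in siERRa, 38.3, 41.0 and 41.1 in siHCFC1 and 41.9, 39.5 and 37.8 with both pools. All 9 knockdown libraries were below the 3 of siC. Rxrb had a log2 change of -0.53 ± 0.16 in siERRa (SE, adjusted p = 0.196), -0.32 ± 0.16 in siHCFC1 (adjusted p = 0.282) and -0.33 ± 0.16 in the combined knockdown (adjusted p = 0.253). DESeq2 called the siERRa value (adjusted p = 0.0465). Rxra was at 67.3, 49.8 and 74.0 CPM in siC, 66.8, 38.2 and 53.0 in siERRa, 49.0, 37.8 and 61.1 in siHCFC1 and 64.2, 37.0 and 60.1 with both pools, so every group overlapped siC.

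Of the retinoic acid receptors, Rarg had the 3 siERRa libraries below all of siC without passing the test. Its level was 108, 99.8 and 122 CPM in siC, 74.7, 60.0 and 91.0 in siERRa, 124, 102 and 140.0 in siHCFC1 and 124, 96.9 and 141 with both pools. The log2 change was -0.55 ± 0.21 in siERRa against siC (SE, adjusted p = 0.347) and 0.68 ± 0.21 in the combined knockdown against siERRa (adjusted p = 0.0955). DESeq2 called the latter (adjusted p = 0.014), and the authors' deposited table does not (adjusted p = 0.0734). The departure of Rarg from additivity was 0.53 ± 0.29 (SE, adjusted p = 1.0), so a difference between its response to Esrra siRNA with and without Hcfc1 siRNA was not shown. Rara was at 68.7, 61.8 and 79.6 CPM in siC, 61.8, 49.4 and 64.8 in siERRa, 78.9, 65.1 and 94.2 in siHCFC1 and 80.4, 63.8 and 89.7 with both pools, and each group overlapped siC. Its log2 change in siERRa was -0.26 ± 0.20 (SE, adjusted p = 0.779).

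Of the fatty acid receptors, Pparg, best known from adipocytes and steatotic liver, was at 11.6, 6.97 and 10.4 CPM in siC, 3.13, 4.83 and 6.05 in siERRa, 6.04, 8.0 and 14.8 in siHCFC1 and 4.9, 4.77 and 6.32 with both pools. The 6 libraries with the Esrra pool were below all siC libraries, and siHCFC1 spanned the range of siC. Pparg had a log2 change of -1.05 ± 0.37 in siERRa (SE, adjusted p = 0.301) and -0.86 ± 0.37 in the combined knockdown (adjusted p = 0.19), so neither passed. Ppard, which is expressed in most tissues, was at 64.9, 61.4 and 87.9 CPM in siC, 64.1, 46.1 and 66.3 in siERRa, 50.3, 49.1 and 66.9 in siHCFC1 and 53.3, 54.4 and 60.2 with both pools. The last group lay below siC without overlap, at a log2 change of -0.35 ± 0.20 (SE, adjusted p = 0.355). Ppara was at 0 in 5 of the 12 libraries and at most 0.854 CPM.

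The thyroid hormone receptor genes had values on opposite sides of siC in siHCFC1. Thra was at 39.8, 35.2 and 41.5 CPM in siC, 32.1, 25.0 and 24.3 in siERRa, 27.4, 24.1 and 33.5 in siHCFC1 and 27.4, 26.1 and 34.4 with both pools. All 9 knockdown libraries were below siC, with log2 changes of -0.52 ± 0.20, -0.46 ± 0.20 and -0.41 ± 0.20 (SE, adjusted p = 0.348, 0.201 and 0.256). Thrb was at 5.68, 6.59 and 8.64 CPM in siC and 11.4, 12.1 and 10.6 in siHCFC1, without overlap, a log2 change of 0.71 ± 0.33 (SE, adjusted p = 0.242). In siERRa it was at 3.94, 5.6 and 5.57 CPM and in the combined knockdown at 4.55, 9.64 and 12. Thrb thus made up 20.3% ± 3.72 of NR1A transcript in siHCFC1 and 10.0% ± 1.7 in siC (SD, n = 3), a difference with no test of its own.

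The sterol, bile acid and vitamin D receptors were not called in any comparison. Nr1h2 was at 109, 112 and 113 CPM in siC, 81.7, 90.8 and 109 in siERRa, 108, 135 and 122 in siHCFC1 and 118, 139 and 119 with both pools. Its log2 changes were -0.25 ± 0.17, 0.12 ± 0.17 and 0.17 ± 0.17 against siC (SE, adjusted p = 0.718, 0.766 and 0.655). Vdr was at 9.01, 8.12 and 11 CPM in siC, 11.8, 9.57 and 15.4 in siERRa, 11.8, 6.74 and 11 in siHCFC1 and 19.1, 9.98 and 19.5 with both pools, where libraries 1 and 3 were high and library 2 lay within the siC range. Its log2 change there was 0.79 ± 0.31 (SE, adjusted p = 0.145). Nr1h4 had a log2 change of 0.96 ± 0.42 in the combined knockdown (SE, adjusted p = 0.195), with 2.96 to 4.72 CPM in siC and 4.39 to 9.18 CPM there. Nr1h3 stayed at or below 1.14 CPM. The xenobiotic receptor CAR, encoded by Nr1i3, stayed at or below 3.17 CPM. A share of 74.9% of Nr1i3 exon bases overlaps Tomm40l, which rose after Hcfc1 siRNA (log2 change 1.61 ± 0.26, SE, adjusted p = 0.00259), whereas Nr1i3 had -0.32 ± 1.14 (SE, adjusted p = 0.922). Rora, a monomeric receptor of the clock, was at 18.6 to 23.3 CPM in siC and 9.36 to 26.4 CPM in the other groups.

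In siHCFC1, 5 receptors had all libraries above siC (11.5% of all genes) and 2 all below (15.8% of all genes). In the combined knockdown 6 were above (13.3% of all genes) and 4 below (16.7% of all genes). Against siERRa the combined knockdown was above for 7 receptors (9.78% of all genes) and below for 0 (11.4% of all genes), and against siHCFC1 it was above for 0 (5.99% of all genes) and below for 0 (5.35% of all genes). The median log2 change of the 27 was 0.12 in siHCFC1, 0.16 in the combined knockdown and 0.33 in the combined knockdown against siERRa, with medians of all genes within 0.01 of 0. With TPM in place of counts, where the median of all genes shifts by -0.16 in siHCFC1 and -0.13 in the combined knockdown against siC, the median of the 27 was -0.09 in siHCFC1 and 0.02 with both pools. The side of 0 on which the receptors lie in siHCFC1 as a set therefore depends on the scaling, and 16 of 27 above 0 became 11 of 27. The authors' deposited tables call 1 receptor higher in siERRa, 3 in siHCFC1, 4 in the combined knockdown against siC, 2 against siERRa and 0 against siHCFC1, and 0 lower in each, where they call 1.29%, 7.57%, 9.65%, 3.22% and 0.161% of all genes listed.

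**Figure D4:**
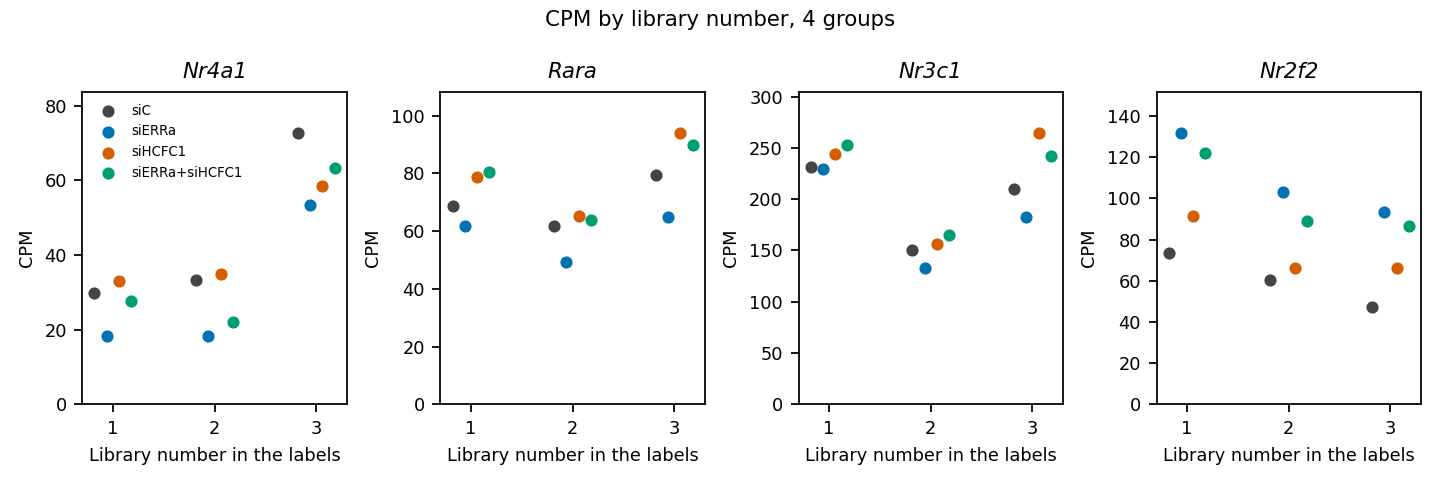
CPM of 4 receptor genes by the library number in the labels, 1 colour per group. Library 3 is highest for Nr4a1 and Rara in all 4 groups, library 2 is lowest for Rara and Nr3c1, and library 1 is highest for Nr2f2.

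Several receptors had the same library number highest or lowest in every group. Nr4a1 was at 53.3 to 72.8 CPM in the libraries numbered 3 and at 18.2 to 35.0 CPM in all others, so its spread within groups exceeded any difference between them. Library 3 was the highest in all 4 groups for 5 receptors (Rara, Rarg, Ppard, Nr3c2 and Nr4a1), as it was for 9.19% of all tested genes. Library 2 was the lowest in all 4 groups for 6 receptors (Rara, Rarg, Rora, Vdr, Rxra and Nr3c1), against 16.4% of all genes, and the highest for Nr5a2 and Nr6a1, against 16.3%. Nr3c1 was at 133 to 165 CPM in the libraries numbered 2 and at 183 to 265 CPM in the others. The labels do not say what the numbers mark.

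Genes that work with the receptors or are textbook targets of them were listed from general knowledge, and few changed. Of 18 coactivator genes, 1 fell in siHCFC1 and in the combined knockdown against siC, and 1 rose in the combined knockdown against siERRa. The first was Pprc1, the PGC-1-related coactivator, at 41.2 ± 3.36 TPM in siC and 17.5 ± 1.48 in siHCFC1 (SD, n = 3; log2 change -1.08 ± 0.17, SE, adjusted p = 0.00206). The other was Ncoa3, a p160 coactivator, with 0.79 ± 0.20 (SE, adjusted p = 0.0444). Of 12 corepressor genes 1 fell in both comparisons with siC that used the Hcfc1 pool: Gps2, a subunit of the NCOR complex, at 54.5 ± 10.4 TPM in siC, 64.7 ± 4.3 in siERRa, 19.5 ± 5.24 in siHCFC1 and 28.8 ± 4.57 with both pools (SD, n = 3). Its log2 change was -1.34 ± 0.22 in siHCFC1 (SE, adjusted p = 0.00285), -0.80 ± 0.22 in the combined knockdown (adjusted p = 0.0414) and -1.09 ± 0.22 between the combined knockdown and siERRa (adjusted p = 0.0152). None of the 10 lists had a call in siERRa against siC, where 0.438% of all genes did.

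Target lists gave scattered calls in both directions. Of 14 tested PPAR targets, 1 rose in siHCFC1 and 2 with both pools: Vnn1, a pantetheinase, with log2 changes of 1.79 ± 0.50 and 2.60 ± 0.51 (SE, adjusted p = 0.0448 and 0.00724), and Pdk4, a pyruvate dehydrogenase kinase, with 1.27 ± 0.33 in the combined knockdown (adjusted p = 0.0345). Of 10 LXR targets, Lpl, lipoprotein lipase, rose in siHCFC1 by 1.17 ± 0.28 against siC (log2 ± SE, adjusted p = 0.0241) and in the combined knockdown by 1.13 ± 0.28 against siERRa (adjusted p = 0.043). Scd1, a fatty acid desaturase, fell in the combined knockdown, with 512 ± 33.8 TPM in siC and 217 ± 39.0 there (SD, n = 3; adjusted p = 0.00991). The median log2 change of the LXR targets was -0.39 in siHCFC1 and -0.43 in the combined knockdown, with 8 and 7 of 10 below 0. In siERRa 8 of 10 were below 0 too, at a median of -0.17. Of 4 tested FXR targets, Abcb4, a phospholipid exporter of bile, rose in the combined knockdown (1.63 ± 0.34, SE, adjusted p = 0.0104). Its level was 1.16 ± 0.16 TPM in siC, 3.32 ± 0.40 in siERRa, 1.68 ± 0.53 in siHCFC1 and 3.22 ± 0.42 with both pools (SD, n = 3). Abcb4 was thus about as high with the Esrra pool alone, where it was not called.

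Of 10 RAR targets, Rdh10, which makes retinaldehyde for retinoic acid synthesis, rose in siHCFC1 (1.48 ± 0.30, SE, adjusted p = 0.0105) and in the combined knockdown (1.41 ± 0.30, adjusted p = 0.0121). It was at 75.5 ± 19.0 TPM in siC, 119 ± 29.9 in siERRa, 186 ± 52.6 in siHCFC1 and 181 ± 12.3 with both pools (SD, n = 3). The median of the RAR targets was 0.48 in siHCFC1 and 0.50 with both pools, with 9 of 10 above 0 in each. In siERRa 7 of 10 were above 0, at a median of 0.28. None of 6 thyroid hormone receptor targets and none of 11 glucocorticoid receptor targets was called. Of 7 targets of CAR and PXR 1 was called, Aldh1a7, higher in the combined knockdown than in siERRa (1.13 ± 0.25, SE, adjusted p = 0.027).

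Among 10 tested enzymes that make or clear steroid, oxysterol and vitamin D ligands, 1 rose and 1 fell in siHCFC1 and in the combined knockdown. Cyp7b1, an oxysterol hydroxylase, was at 1.42 ± 1.12 TPM in siC, 9.54 ± 3.88 in siHCFC1 and 11.5 ± 5.16 with both pools (SD, n = 3), with log2 changes of 2.90 ± 0.70 and 3.13 ± 0.70 (SE, adjusted p = 0.0236 and 0.0159). Sult2b1, a cholesterol sulfotransferase, was at 8.07 ± 1.65 TPM in siC, 1.89 ± 0.71 in siHCFC1 and 1.32 ± 0.69 with both pools, with log2 changes of -1.93 ± 0.43 and -2.45 ± 0.44 (SE, adjusted p = 0.0166 and 0.00482). The shares of called genes in these lists stand beside 6.68% of all genes in siHCFC1 and 6.89% with both pools.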

How the data were processed

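RNA libraries of 12 samples were made with a kit that does not mark strand, per the labels' protocols. The submitters' processing notes name HISAT2 2.0.5, featureCounts 1.5.0-p3, DESeq2 1.20.0 and mm10; strand settings and the annotation are not given in the sources used here. The deposited tables hold whole-number counts per gene and library, TPM values, and the authors' log2 fold changes and adjusted p-values for 5 comparisons. Count tables were merged (24326 genes; 0 of 377781 shared cells differed; 5451 blanks set to 0), and 60 further columns of per-library values were not used. For TPM, 1 column per group carries a library number the labels lack, so TPM is given by group.

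Counts were tested with edgeR 4.0.16 (R 4.3.3; TMM, filterByExpr, glmQLFit, glmQLFTest) in 1 model with a mean for each of the 4 groups (8 residual degrees of freedom), after a check on simulated data. Precision is limited by 3 libraries per group; no libraries of a group were copies (lowest chi-square per degree of freedom 40.3). Standard errors come from the fit. Alternatives were DESeq2 1.42.0, RLE scaling, no filter, limma 3.58.1 on log2(TPM + 0.5), 2 groups only, a replicate block and left-out libraries. Overlap of exons was computed in GENCODE M21; 38 of 40 gene positions equal it, and genes with over 20% of exon bases or 31-base words shared count as uncertain. Promoter sequences are RefSeq's (GRCm38.p6). Members, the 10 lists, tests and named genes were chosen with earlier results of these data known. Values per library are given for members called (with or without the block), with siC ranges apart, or among the 6 with the highest TPM; of each list up to 3 called genes per comparison are named.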

Additional observations from a re-analysis of the deposited data

How the results depend on the processing

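Over 31 gene and comparison pairs and 651 alternative values, 0 changed direction, 576 kept their side of the threshold, 39 lost it and 36 gained it. The number of receptors called in siERRa against siC went from 0 to 2 with DESeq2 and 1 with no filter. In siHCFC1 it went from 1 to 2 with 2 groups only, 3 with DESeq2, 2 with RLE scaling, 2 with no filter and 0 with limma on TPM, and in the combined knockdown against siC from 2 to 4 with DESeq2 and 0 with limma. Against siERRa it went from 2 to 0 with 2 groups only, 4 with DESeq2 and 0 with limma. The cause was not tested. Leaving out libraries gave 0 to 2 calls in siHCFC1, 0 to 3 in the combined knockdown against siC and 0 to 2 against siERRa. The 3 calls came without siERRa library 2 or 3 and added Nr5a2 to Esr1 and Nr2f6, and without the libraries numbered 2 the 1 call was Vdr. In each comparison, leaving out the libraries numbered 1 gave the fewest calls over all genes: 15, 5 and 3, against 1066, 1100 and 518.

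A fit with library number as replicate block called 7, 10, 6, 8 and 1 receptors in siERRa, siHCFC1 and the combined knockdown against siC, and in the combined knockdown against siERRa and against siHCFC1, and 1625, 3974, 4067, 3191 and 562 of all genes. In siERRa these were Nr2c1, Nr2f2, Nr4a1, Pparg, Rarg, Rxrb and Thra. In siHCFC1 they were Esr1, Nr2c2, Nr2f2, Nr2f6, Nr4a2, Nr5a2, Ppard, Rxra, Thra and Thrb, and in the combined knockdown against siC Esr1, Nr2f2, Nr2f6, Nr5a2, Pparg and Vdr. Against siERRa they were Esr1, Nr1h2, Nr2f6, Nr4a2, Nr5a2, Nr6a1, Rara and Rarg, and against siHCFC1 Nr2f2. The labels do not say that numbers pair libraries. Deviations from group means correlated between same-numbered libraries with r from 0.028 to 0.0806 for number 1, 0.233 to 0.335 for number 2 and 0.19 to 0.269 for number 3, and between differently numbered ones from -0.281 to 0.0546, over 15965 genes. The fit without the block was kept because the labels give no pairing and the number 1 pairs stay low. All pairs numbered 2 or 3 nevertheless correlated above every differently numbered pair. Low values for number 1 therefore do not settle whether the numbers mark a shared source, which was not tested. With 3 libraries per group, changes of receptors below about 1 TPM were not resolvable: their standard errors ran to 2.03 on the log2 scale against siC.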
